A study of Mus musculus with 4 samples.

Results

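Transcripts of 9 genes of the complement system were measured in lumbar spinal cord of WT and G93A mice that had received spermidine (SD) or vehicle. The 9 genes were listed by name: the 3 chains of C1q (C1qa, C1qb and C1qc), the central component C3, the component C4 (C4b), the receptors C3ar1, C5ar1 and Itgam, and the inhibitor Serping1. They occupy 11 of the 23750 rows of the table, which holds 18674 gene names, and a gene with more than 1 row is given as the mean of its rows. G93A mice carry a mutant human SOD1 transgene (the H1 high-expresser strain, kept on a B6/SJLF1 background) and develop motor neuron disease, and the transgene itself was not analysed here. Mice were 100 days old after 30 days of SD or PBS, 4 times a week. The dose named for the treatment experiments, in males, was an injection of 5 mg/kg. Each genotype gave 1 library from vehicle mice and 1 from SD mice, 4 in all, and how many mice went into a library is not given in the sources used here. With 1 library per condition a difference has no replicate check, so no test was made and no p-value is given. What 2 mice of one condition would differ by is unknown.

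Complement is a cascade of proteins that tags cells, debris and synapses for removal. In the classical pathway C1q, built from its A, B and C chains, binds a target and leads to cleavage of C4 and then C3, while Serping1 (the C1 inhibitor) blocks the proteases bound to C1q. Fragments of C3 and C5 are sensed by the receptors C3ar1 and C5ar1, and C3-coated material is bound by complement receptor 3, a pair of integrin chains encoded by Itgam and Itgb2. In the healthy central nervous system microglia are the main source of C1q, and C3 and C4 are also made by astrocytes.

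The promoters of 4 members are printed, those whose windows held the letters marked below, and no result on levels rests on them. C1qb and C1qc had the most similar profiles of any pair of members, and Itgam encodes the alpha chain of complement receptor 3. C3 was the member called lower with SD in WT and higher with SD in G93A. Whether the promoter letters bear on these values was not tested. The sequences are RefSeq promoter windows of 300 bases, 250 before and 50 after the start that RefSeq uses, on GRCm38.p6 and written 5′ to 3′ on the strand of the gene. A window was held for 6 of the 9 members, and C1qa, C4b and Serping1 had none. Capitals mark GAGGAA or its complement TTCCTC (the core bound by PU.1, a myeloid factor) in the first 3 windows, and TTGCNNAA or TTNNGCAA (the C/EBP letters) in the window of C3.
C1qb, chr4:136886151-136886450, minus strand: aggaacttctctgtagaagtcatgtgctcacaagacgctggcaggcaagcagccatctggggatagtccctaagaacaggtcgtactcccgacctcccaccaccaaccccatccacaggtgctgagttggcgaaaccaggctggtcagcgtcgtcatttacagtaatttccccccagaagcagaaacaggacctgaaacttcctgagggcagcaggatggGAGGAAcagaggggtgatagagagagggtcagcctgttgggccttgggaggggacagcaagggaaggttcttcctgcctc
C1qc, chr4:136892865-136893164, minus strand: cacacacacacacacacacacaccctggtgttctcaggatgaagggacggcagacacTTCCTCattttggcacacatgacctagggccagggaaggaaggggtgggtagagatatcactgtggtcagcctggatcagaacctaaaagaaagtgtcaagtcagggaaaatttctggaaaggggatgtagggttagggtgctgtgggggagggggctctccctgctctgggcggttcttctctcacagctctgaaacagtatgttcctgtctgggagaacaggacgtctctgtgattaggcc
Itgam, chr7:128062390-128062689, plus strand: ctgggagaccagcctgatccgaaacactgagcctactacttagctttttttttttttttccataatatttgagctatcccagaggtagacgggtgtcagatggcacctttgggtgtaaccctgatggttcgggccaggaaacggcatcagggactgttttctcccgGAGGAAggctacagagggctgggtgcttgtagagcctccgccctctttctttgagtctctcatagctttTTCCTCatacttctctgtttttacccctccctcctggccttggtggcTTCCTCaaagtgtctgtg
C3, chr17:57228087-57228386, minus strand: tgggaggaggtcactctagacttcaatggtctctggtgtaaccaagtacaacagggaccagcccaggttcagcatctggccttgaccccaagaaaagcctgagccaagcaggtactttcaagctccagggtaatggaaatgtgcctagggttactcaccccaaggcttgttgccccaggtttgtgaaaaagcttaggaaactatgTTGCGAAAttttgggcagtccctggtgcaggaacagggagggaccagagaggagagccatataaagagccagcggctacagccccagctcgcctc
The PU.1 letters stood 1 time in C1qb (base 221 of the window), 1 time in C1qc (base 58) and 3 times in Itgam (bases 167, 236 and 283), and not in the windows of C3, C3ar1 and C5ar1. They occurred in 28.3% of all 32851 promoter windows, so a match is common. The C/EBP letters stood 1 time in the window of C3 (base 206), in none of the other 5, and in 10.8% of all windows. TTCNNNGAA (the STAT letters, the same on both strands, in 8.30% of all windows) was found in none of the 6 windows. GAAANNGAA or TTCNNTTTC (the interferon response letters, in 8.56% of all windows) stood 1 time in that of C5ar1, at base 185, and in none of the other 5. A longer form of the interferon response letters and an NF-kB motif were searched first, in 3.44% and 1.47% of all windows, and stood in none of the 6. The shorter interferon form was taken after this had been seen. A match describes the letters and not a bound site.

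The values were taken to be read numbers corrected for the length of the transcript and the size of the library (RPKM), a level per length. Comparisons of this level between genes are uncertain: Gapdh was listed at 1.67 to 1.82 RPKM and Ppia at 1.46 to 1.74, beside Actb at 310 to 445. Total read numbers were not used here. From the value of 1 read pair on low transcripts, depth was estimated at between 36.8 and 38.6 M read pairs per library (M, mega). Because the libraries came from tissue, more cells of a type and more RNA per cell cannot be told apart in any value below. A name was called higher or lower where 2 libraries differed at least 1.5-fold, among the 12987 names with a mean of at least 1 RPKM over the libraries. In place of a test, the counts of members are set beside the percentage of all such names called by the same rule, and the same percentages apply to the counts of other lists.

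All 9 members were higher in both G93A libraries than in both WT libraries. The members' summed level was 125 RPKM with vehicle and 103 with SD in WT, against 922 with vehicle and 1126 with SD in G93A. C1q, C3 and C4b made up between 92.5% and 94.6% of that sum in each library. A gap of this kind, with both G93A libraries above both WT libraries, was found in 43.7% of names with a mean of at least 1 RPKM, and a gap of at least 1.5-fold between the lowest G93A and the highest WT library in 11% of them. The gap was at least 1.5-fold for 8 of the 9 members, with C5ar1 as the exception.

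**Figure D1:**
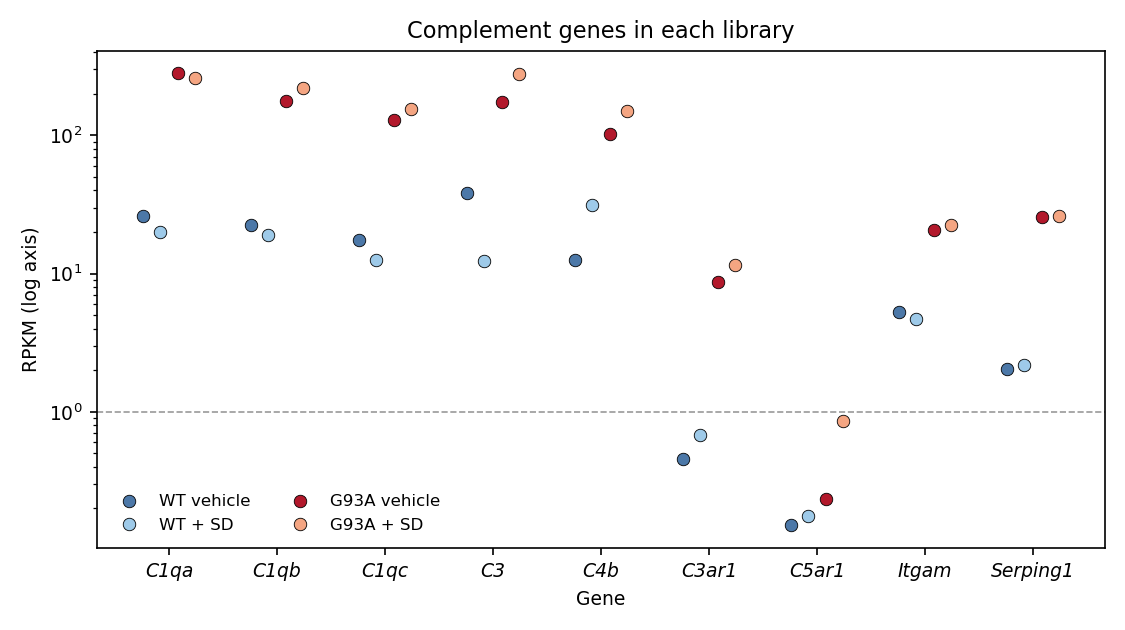
RPKM of the 9 genes on a log axis, with 1 point per library (blue, WT; red, G93A; the paler shade of each is SD) and a dashed line at 1 RPKM. Every gene has both red points above both blue points, and C5ar1 lies under 1 RPKM throughout while C3ar1 passes 1 RPKM in the G93A libraries alone.

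Between the vehicle libraries, 8 of the 8 members with a mean of at least 1 RPKM were called higher in G93A, against 13.5% of all names. C3ar1 is among these 8 although it passed the minimum through the G93A libraries alone, and 7 members lay above 1 RPKM in both WT libraries. Without the filter on low values 9 of 9 were called higher, against 20.3% of names. Between the SD libraries the counts were again 8 of 8, against 16.3%, and 9 of 9, against 23.2%. The median log2 fold change of the 9 members was 3.001 for vehicle and 3.59 for SD, where the median over all names above that minimum was 0.05 in each. These 2 comparisons have no library in common, but each compares 1 library with 1 other.

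**Figure D2:**
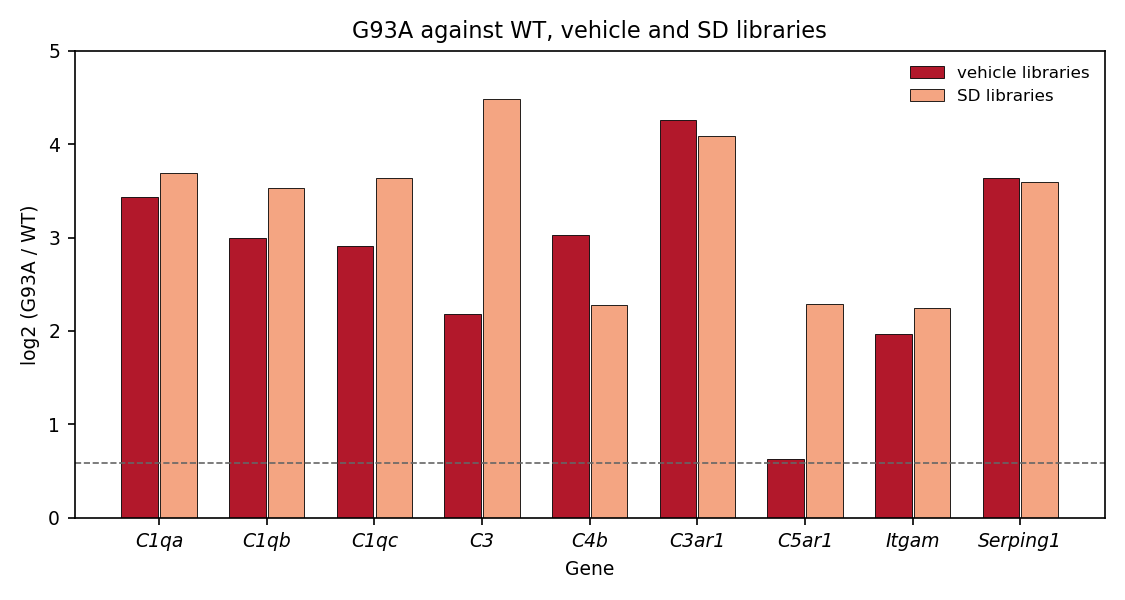
Log2 ratio of G93A to WT for each gene, from the vehicle libraries (dark) and the SD libraries (pale), 1 library over 1 library with no error estimate. The dashed line is 1.5-fold. The bars of a gene differ least for Serping1 (0.05 lower with SD on the log2 scale) and most for C3 (2.30 higher) and C5ar1 (1.66 higher).

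C1q stood among the most abundant transcripts of the G93A cord. C1qa measured 26.0 RPKM in WT given vehicle and 20.1 in WT given SD, and 281 and 261 in G93A. It ranked 2165 and 2925 among all names in the WT libraries and 78 and 85 in the G93A libraries, a 10.8-fold difference between vehicle libraries and 12.96-fold between SD libraries. C1qb measured 22.3, 19.1, 179 and 221 RPKM in the order used for C1qa, an 8.004-fold difference with vehicle and 11.5-fold with SD. C1qc, at 17.4, 12.5, 130 and 156 RPKM, differed 7.49-fold and 12.5-fold. For all 3 chains the genotypes were far apart, while the SD library of a genotype lay within 1.5-fold of its vehicle library.

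The chains assemble in equal parts in the protein, and the 3 transcripts kept a similar order in each library. C1qa made up 39.6% of the summed C1q level with vehicle and 38.9% with SD in WT, against 47.7% with vehicle and 40.9% with SD in G93A. C1qb made up between 30.3% and 37.0%, and C1qc between 22.1% and 26.4%. The order C1qa, C1qb, C1qc held in all 4 libraries. The 3 genes lie side by side within 18.7 kb on chromosome 4 (GRCm38.p6), on the minus strand: C1qb at 136880126 to 136886200, C1qc at 136889801 to 136892936 and C1qa at 136895916 to 136898844. None of the 53-base windows of their transcripts, the length of the reads, occurs in a transcript of another gene in GENCODE M21. Only exact matches to annotated transcripts were searched, not inexact ones or the rest of the genome.

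**Figure D3:**
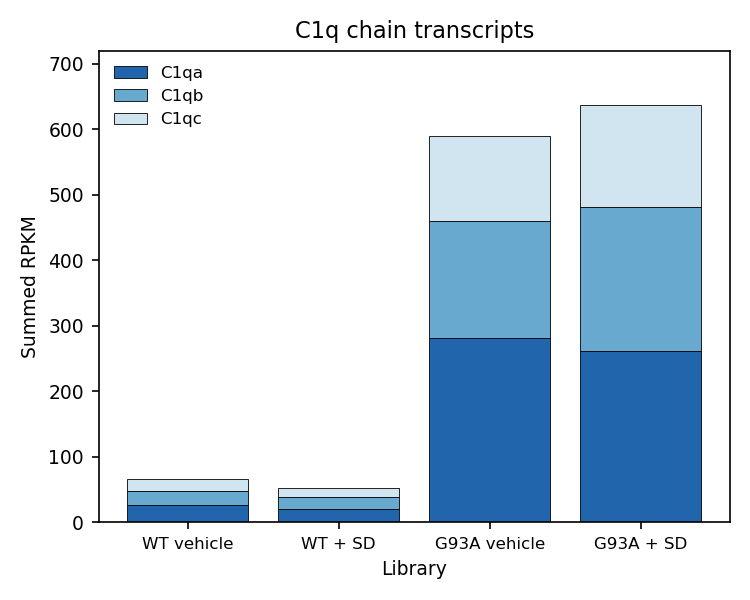
Summed RPKM of the C1q chains in each library, stacked from 0 as C1qa, C1qb and C1qc. The sum was 65.7 in WT given vehicle and 51.8 in WT given SD, and 590 and 638 in G93A, with C1qa the tallest band in each bar.

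C3, which every pathway of complement cleaves, was 38.5 RPKM with vehicle and 12.4 with SD in WT, against 175 with vehicle and 277 with SD in G93A. It was the most abundant of the 9 in WT vehicle and in G93A + SD. The fold between genotypes was 4.55 with vehicle and 22.4 with SD, as WT + SD lay below WT vehicle and G93A + SD above G93A vehicle. The WT libraries differed from each other 3.11-fold, so the genotype fold of C3 moves with the WT library that serves as reference. Against the other WT library the log2 fold was 3.82 for G93A vehicle and 2.85 for G93A + SD, where the pairs matched for treatment gave 2.19 and 4.48. The gene lies on the minus strand of chromosome 17 at 57203967 to 57228136, and GENCODE M21 places the microRNA gene Mir6978 inside it on the same strand, over 57 bases.

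C4b encodes C4, whose cleavage follows the activation of C1. It measured 12.5 RPKM in WT given vehicle and 31.1 in WT given SD, and 102 and 151 in G93A. Both G93A libraries were above both WT libraries, by 8.14-fold with vehicle and 4.83-fold with SD. As for C3, the 2 WT libraries differed (2.49-fold), in the opposite direction, so that C3 was above C4b in WT vehicle by 3.08-fold and C4b above C3 in WT + SD by 2.52-fold. In the G93A libraries C3 was above C4b by 1.72-fold with vehicle and 1.84-fold with SD. C4b lies on the minus strand of chromosome 17 at 34728139 to 34743902, 22.5 Mb from C3, and its near copy C4a lies 81.0 kb away, measured between the lower coordinates of the genes. Of the 53-base windows of the C4b transcript, 33.4% also occur in that of C4a, so the split of reads between the 2 genes is uncertain. C4a was listed at between 0.810% and 4.97% of the level of C4b.

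C3ar1, the receptor for the C3a fragment, lay under 1 RPKM in WT and well above it in G93A. It was 0.453 RPKM with vehicle and 0.677 with SD in WT, against 8.69 with vehicle and 11.5 with SD in G93A. The folds were 19.2 and 17.0, from an estimated 71.8 and 111 read pairs in the WT libraries and 1422 and 1910 in the G93A libraries. Its mean passed the minimum through the G93A libraries alone, since both WT values lay under 1 RPKM. With a pseudocount of 1 RPKM its log2 fold was 2.74 with vehicle and 2.90 with SD, in place of 4.26 and 4.09. Its fold with vehicle was the largest of the 9 without a pseudocount, but not with 1 RPKM (C1qa, 3.38) or against the other WT library (3.68, with C3 at 3.82). C3ar1 lies on the minus strand of chromosome 6 at 122847140 to 122856157.

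C5ar1, the receptor for C5a, was the lowest of the 9 in every library. Its levels of 0.151, 0.176, 0.234 and 0.861 RPKM, in the same order as for C1qb, correspond to an estimated 14.0, 16.9, 22.3 and 83.5 read pairs. The first 3 libraries were close together and G93A + SD stood above them. The fold between genotypes was 1.55 with vehicle and 4.89 with SD, and both rest on few read pairs. A pseudocount of 1 RPKM, larger than any of its values, brought the log2 fold from 0.63 to 0.10 with vehicle and from 2.29 to 0.66 with SD. Its ligand is cut from C5, and the C5 gene Hc was between 0.0985 and 0.163 RPKM. C5ar1 lies on the minus strand of chromosome 7 at 16246743 to 16259540.

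Itgam, the alpha chain of complement receptor 3, was 5.27 RPKM in WT given vehicle and 4.71 in WT given SD, and 20.6 and 22.4 in G93A. The folds, 3.90 and 4.75, were the smallest of the 8 members above the minimum, with SD by a narrow margin (C4b, 4.83). Against the other WT library C4b was lower than Itgam for G93A vehicle, at log2 folds of 1.71 and 2.13. Its partner Itgb2 measured 2.04, 1.81, 21.7 and 21.4 RPKM, a difference of 10.6-fold with vehicle and 11.8-fold with SD. The ratio of Itgb2 to Itgam was therefore 0.388 and 0.384 in the WT libraries and 1.06 and 0.956 in the G93A libraries. Itgax, the alpha chain of complement receptor 4, was 0.0925 and 0.0923 RPKM in the WT libraries (an estimated 13.8 and 14.3 read pairs) and 13.2 and 15.5 in the G93A libraries, at 142-fold and 168-fold the largest folds of the complement genes named here. Itgam lies on the plus strand of chromosome 7 at 128062640 to 128118491. Its level is uncertain in 1 respect: the GENCODE M21 gene Gm49368 overlaps it on the same strand, and 72.3% of the 53-base windows of the Itgam transcript also occur in transcripts of that model.

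Serping1, the inhibitor of the C1 proteases, was 2.06 RPKM with vehicle and 2.17 with SD in WT, against 25.7 with vehicle and 26.1 with SD in G93A. The folds between genotypes were 12.5 and 12.04, and the libraries of a genotype differed 1.06-fold in WT and 1.02-fold in G93A. It was the member that differed least with SD in both genotypes. Serping1 lies on the minus strand of chromosome 2 at 84765360 to 84775444.

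The members fell into profiles of different likeness across the 4 libraries. Likeness was measured as the root mean square distance between profiles of log2(RPKM + 0.1), each centred on its own mean. C1qb and C1qc were the closest pair at 0.0915, followed by C1qa with Serping1 at 0.164. C3 and C4b were 1.10 apart, although both made part of the same abundant group. Over the 8847 names whose mean reached 5 RPKM, and leaving the 9 members out of the ranking, the profiles closest to the mean of the C1q chains were those of Itgb2, Fcgr3, Slc11a1, Lag3 and Capg, at distances of 0.0959 to 0.113. Those closest to Serping1 were Hmox1, Lpl, Cyba, Itgb2 and Slc11a1, at 0.0844 to 0.116. C3 and C4b had no neighbour so near: the closest of these names were Emp3 for C3 at 0.412 (the member C1qc was at 0.433), followed by AF251705, Lag3, Emp1 and Ctsh up to 0.483, and Tagln for C4b at 0.273, followed by Thbs2, Loxl2, Ctsc and Ucma up to 0.364. With 4 points a profile rests largely on the difference between genotypes.

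SD and vehicle libraries differed little for most members. In WT, of the 8 members with a mean of at least 1 RPKM, 1 was called higher with SD (C4b, against 0.909% of names) and 1 lower (C3, against 1.36%). In G93A 1 was called higher (C3, against 1.34%) and none lower (against 1.04%). The median log2 fold change with SD over the 9 members was -0.16 in WT and 0.31 in G93A, beside 0.01 over all names above the minimum in each. The WT vehicle library is shared by the comparison with SD in WT and the genotype comparison with vehicle, and the G93A vehicle library likewise.

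C3 was 3.11-fold lower with SD in WT and 1.58-fold higher with SD in G93A, log2 fold changes of -1.64 and 0.66. Opposite calls of this kind, lower in WT and higher in G93A, were met by 18 names, 0.139% of those tested. The value of 12.4 RPKM in WT + SD rests on an estimated 2433 read pairs and that of 38.5 in WT vehicle on 7282, so the number of reads is not what limits this difference. Whether the 2 differences are larger than the spread between mice was not tested.

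C4b was 2.49-fold higher with SD in WT, and 1.48-fold higher in G93A, just under the 1.5-fold threshold. C3ar1 was 1.49-fold higher in WT and 1.32-fold higher in G93A, also under it. The C1q chains were lower with SD in WT, by 1.17-fold to 1.39-fold, while in G93A C1qb and C1qc were higher, by 1.24-fold and 1.20-fold, and C1qa was 1.08-fold lower. None of these passed the threshold. C5ar1, left out by the minimum level, was 3.68-fold higher with SD in G93A (log2 1.88, or 0.59 with a pseudocount of 1 RPKM), where 8.71% of all names without a minimum were called higher.

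**Figure D4:**
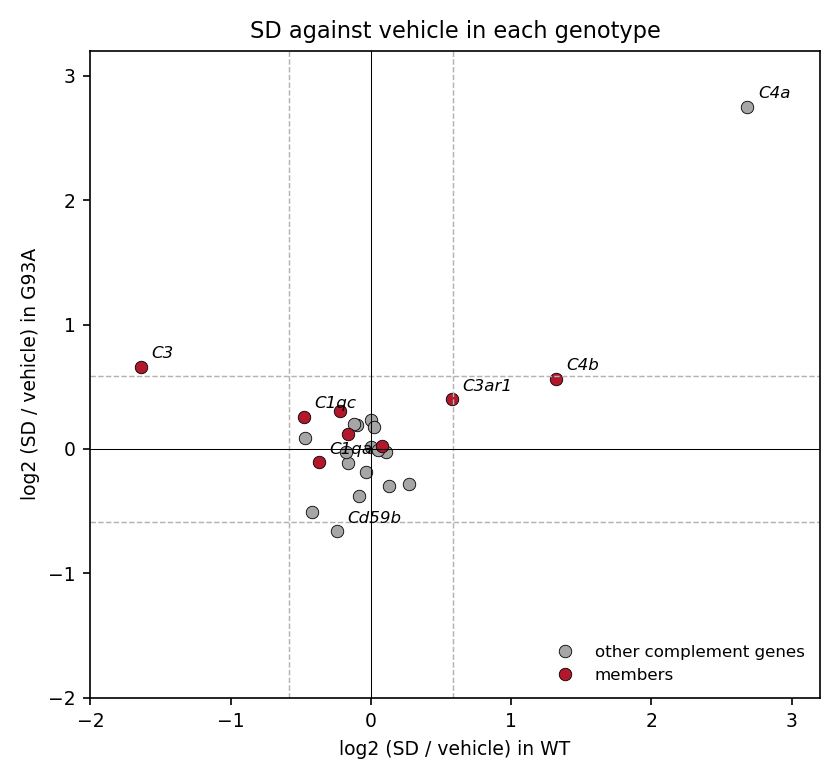
Log2 ratio of SD to vehicle in WT (horizontal) and G93A (vertical) for the 8 members (red) and the 17 other complement genes (grey) with a mean of at least 1 RPKM; dashed lines mark 1.5-fold. C3 lies at the upper left (-1.64 and 0.66), C4b at the right (1.32 and 0.57) and C4a at the upper right (2.68 and 2.75).

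The other genes of the pathway were taken from a list of 47, of which 41 were in the table and 17 had a mean of at least 1 RPKM; Mbl1, Fcnb, Cfd, C7, C9 and Csmd2 were not analysed here. Of the 17, 6 were called higher in G93A with vehicle and 1 lower (against 13.5% and 4.68% of all names), and 6 were higher and 1 lower with SD (against 16.3% and 8.12%). The same 6 were higher in both, C4a, Masp1, Itgax, Itgb2 and Clu among them. Itgax passed the minimum through the G93A libraries alone, and C4a through the SD libraries, being under 1 RPKM in both vehicle libraries. Over the 36 of the 41 other genes with a fold, the median log2 fold change with vehicle was 0.16, beside 3.001 for the 9 members. Nothing is read from this gap: the members were chosen with earlier results of these data known. Of the 41 other genes, 24 had a mean under 1 RPKM.

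By role, in the classical pathway 5 of the 5 genes above the minimum were higher in G93A within each treatment (against 13.5% and 16.3% of names), 4 of them the members C1qa, C1qb, C1qc and C4b. The other, C4a, was lower in G93A vehicle (0.824 RPKM) than in WT + SD (1.55). C1ra, C1s1, C1rb, C1s2 and C2 had means under 1 RPKM. C1ra was 0.309 and 0.179 RPKM in the WT libraries and 1.16 and 1.81 in the G93A libraries. C1s1 was 0.228 and 0.151 RPKM in WT and 0.939 and 1.75 in G93A. Without the minimum, 9 of the 10 classical pathway genes were called higher within each treatment, against 20.3% and 23.2% of names. The exception was C2. In the lectin pathway Masp1, a protease that circulates with lectins, was 3.25 and 3.50 RPKM in the WT libraries and 6.16 and 6.05 in the G93A libraries, and Masp2, the protease that cleaves C4, was not called in either comparison. In the alternative pathway Cfp, which stabilises its convertase, was not called, and Cfb was near 1 RPKM in every library. The terminal components that form the lytic pore, of which Hc, C6, C8a, C8b and C8g were in the table, all had means under 1 RPKM.

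Among regulators, Clu (clusterin), a secreted chaperone, was the most abundant complement gene: it was 307 and 283 RPKM in the WT libraries and 931 and 1068 in the G93A libraries. Cd55, which speeds the decay of convertases, was called lower with vehicle, at 4.19 RPKM in WT and 2.60 in G93A. Susd4 was called lower with SD, at 32.8 RPKM in WT and 18.0 in G93A. Of the 11 regulators above the minimum, Serping1 included, 3 were called higher and 1 lower in each genotype comparison, and 7 were not called.

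C4a, the near copy of C4b, was 0.241 RPKM in WT given vehicle and 1.55 in WT given SD, and 0.824 and 5.55 in G93A. It was 6.43-fold higher with SD in WT and 6.73-fold higher with SD in G93A. There were 28 names, 0.216% of those tested, at least 1.5-fold higher with SD in both genotypes, but C4a passed the minimum level through the SD libraries, where it is high, so nothing is read from that share. C4a and C4b share sequence, so reads of one can be counted for the other. The genes around C4b were then examined, a choice made after these values had been seen. Within 500 kb of its lower coordinate lie 65 names, C4b included, 44 of them with a mean of at least 1 RPKM. With SD, 6 of the 44 were called higher in WT, C4b among them, and 1 lower. In G93A 2 were higher and 3 lower. Over all names 0.909% and 1.36% were called in WT and 1.34% and 1.04% in G93A, but nothing is read from these shares, since C4b and C4a led to the choice of the region and several of the called genes reached the minimum through the libraries where they are high. Those higher in both were C4a and H2-Ob, a chain of an antigen-loading protein, at -489 kb from C4b, on the side away from C4a. The 3 that were lower in G93A were the class II genes H2-Ab1, H2-Aa and H2-Eb1 near H2-Ob, at log2 fold changes of -1.40, -1.10 and -0.75. H2-Ob was 0.231, 1.35, 1.11 and 6.64 RPKM in the order used for C4a. Within 500 kb of C3, of 18 names above the minimum 2 were lower with SD in WT (C3 and Gm11110) and 1 higher in G93A (C3). Within 500 kb of C1qc none of 10 was called with SD in either genotype. Which B6 or SJL alleles of this region each library carried was not tested.

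**Figure D5:**
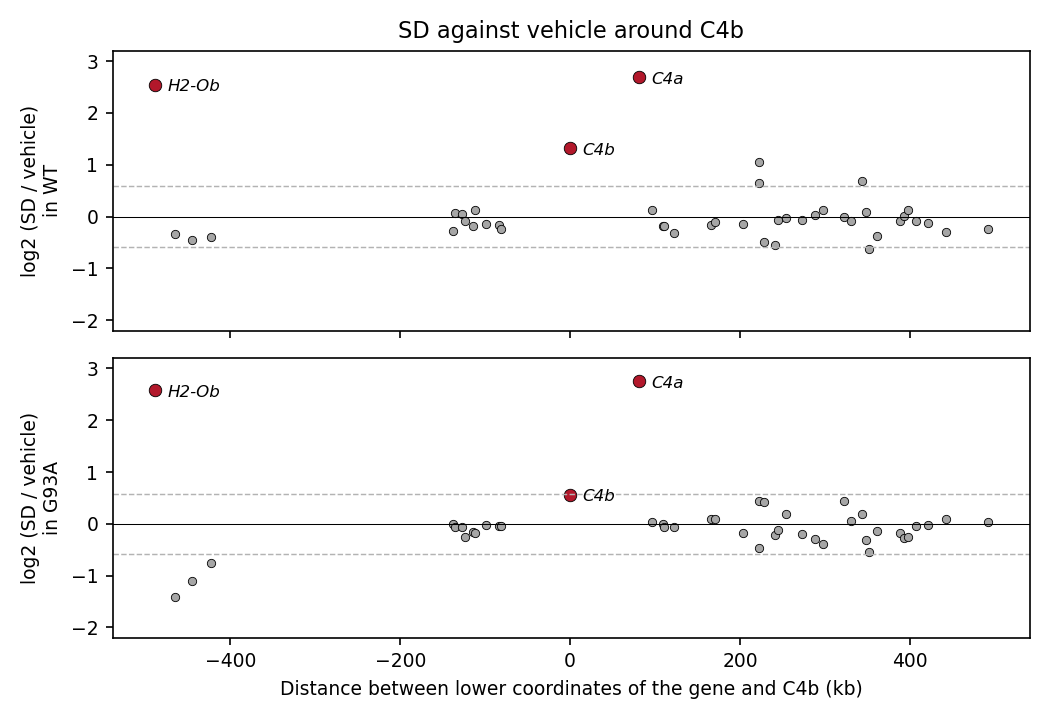
Log2 ratio of SD to vehicle in WT (top) and G93A (bottom) for the 44 names within 500 kb of C4b with a mean of at least 1 RPKM, by the distance of their lower coordinate from that of C4b in kb. C4a and H2-Ob stand far above the others in both genotypes, at 2.68 and 2.55 in WT and 2.75 and 2.58 in G93A, and C4b at 1.32 and 0.57.

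Many markers of microglia and of astrocytes were higher in G93A, as the members were. Of 13 genes of microglia and macrophages, 12 were called higher in G93A with vehicle and 12 with SD, P2ry12 being the exception at 15.9 to 19.6 RPKM, and their summed level was 156 and 149 RPKM in the WT libraries and 780 and 818 in the G93A libraries. Of 9 astrocyte genes 5 were higher with vehicle and 6 with SD, with sums of 2209 and 2065 in WT and 4621 and 5310 in G93A. Markers of infiltrating monocytes and border macrophages summed to between 0.821 and 1.504 RPKM, of neutrophils to between 0.819 and 2.47 and of lymphocytes to between 0.0419 and 0.305, with Ly6c2, Plac8, Camp, Elane, Mpo, Cd3e, Cd3d, Cd8a and Ms4a1 at 0 in at least 1 library. With SD in either genotype none of the 13 microglial genes was called. Of the 9 astrocyte genes none was called with SD in WT and 1 was higher in G93A, Vim at 379 RPKM with vehicle and 586 with SD (1.54-fold). The part of these cells in the values of the members was not tested.

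Markers of neurons, motor neurons and oligodendrocytes were present in every library, and no gene that separates spinal cord from other central nervous tissue was examined. Their sums were lower in both G93A libraries than in both WT libraries. Oligodendrocyte genes summed to 8814 RPKM in WT given vehicle and 9067 in WT given SD, and 7172 and 6573 in G93A. In the same order neuronal genes summed to 2200, 2199, 1483 and 1292, and motor neuron genes to 79.1, 71.9, 60.3 and 44.2. None of the 10 reference genes was called in any of the 4 comparisons. Of these, Gapdh (1.67 to 1.82 RPKM) and Ppia (1.46 to 1.74) were listed at low levels, beside Actb at 310 to 445. Why they were low was not tested. Markers that differed between SD and vehicle libraries included the red cell genes, of which 3 were in the table and summed to 17.8 RPKM with vehicle and 35.7 with SD in WT, against 26.5 with vehicle and 28.8 with SD in G93A. In G93A 1 of 5 endothelial genes was called lower with SD (Cldn5, 1.88-fold), and 1 of 4 motor neuron genes (Chat, 1.51-fold). Of 4 fibroblast genes 1 was called higher (Dcn, 1.82-fold). The other genes of these 3 lists above the minimum were not called, and over all names 1.04% were called lower and 1.34% higher. In each genotype comparison 2 of the 4 fibroblast genes, Col1a1 and Col1a2, were called higher, against 13.5% and 16.3% of names. Fibroblast genes summed to 19.8 RPKM in WT given vehicle and 20.7 in WT given SD, and 23.6 and 30.3 in G93A. Their part in the values of C3, C4b and C4a was not tested.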

How the data were processed

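Lumbar spinal cord RNA of 4 libraries, grouped by the labels, was analysed from 1 deposited table. Per the study's methods, polyA RNA was sequenced as 53-base reads. STAR placed them on GRCm38, and HTSeq counted them over Ensembl genes; the table lists RefSeq transcripts and its header names no unit. The values that the authors deposited were taken as RPKM, inferred because values times transcript length sum alike in each library. The vehicle samples are labelled as having no treatment, and PBS comes from the protocol. The authors' ratio columns, their own comparisons, were not used.

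Rows were averaged per gene name, and folds were computed without a pseudocount (Python 3.11.15, pandas 2.3.3, numpy 2.4.6). Calling was tested on simulated data. The members and lists were chosen with earlier results of these data known. Named were all 9 members, the other complement genes called in a genotype comparison, and the 5 closest profiles of 4 member profiles; C4b neighbours, the markers called with SD and unmeasured or uncalled pathway genes were named after their values were seen. Alternatives were another scaling, filter, pseudocount, threshold, choice of row and, added after seeing the data, WT reference. Promoters came from RefSeq on GRCm38.p6, overlaps and transcripts from GENCODE M21. Some genes of the lists are not reported here.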

Additional observations from a re-analysis of the deposited data

Results flagged for a closer look

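C3 is listed here because its difference between SD and vehicle had opposite directions in the 2 genotypes, each past 1.5-fold. The log2 fold change with SD was -1.64 in WT and 0.66 in G93A, 1 library against 1 library in each. The difference between the 2 was not tested, since a condition has 1 library. None of the other complement genes that passed the minimum level met this.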

How the results depend on the processing

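No paired analysis was possible because each condition has 1 library. The number of members called higher in each genotype comparison was 8 under every alternative run except without the filter, where it was 9, and the median log2 fold change of the 9 members ranged from 2.84 to 3.38 with vehicle and from 3.10 to 3.59 with SD. No fold of a member past the threshold changed sign. C4a, called higher in G93A with vehicle, was lower against the other WT library, at 0.532 of its level. Without the filter on low values 2 members, in place of 1, were called higher with SD in G93A, and with a 2-fold threshold 0 were. Without the filter the other complement genes called numbered 16 higher and 6 lower in G93A with vehicle, 18 higher and 5 lower with SD, 9 higher and 4 lower with SD in WT, and 13 higher and 5 lower with SD in G93A. The 1 other complement gene called lower in G93A with vehicle became 2 with median-of-ratios scaling and with the other WT library, and 0 with a pseudocount of 1 RPKM or a 2-fold threshold; the 1 called lower in G93A with SD became 0 with a 2-fold threshold, and the 1 called lower with SD in G93A became 0 with that pseudocount or threshold. The other WT library moved C3 and C4b, whose log2 folds then were 3.82 and 1.71 for G93A vehicle and 2.85 and 3.59 for G93A + SD. The filter, threshold and pseudocount change the counts by construction, and the cause of the other shifts was not tested. With 1 library per condition no depth can supply the spread between mice, and C5ar1 is limited by its few read pairs.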
